A study of Oncorhynchus mykiss with 72 samples.

Results

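In gill RNA of redband trout (Oncorhynchus mykiss), 262 transcribed features had a higher response to heat in a desert strain, Little Jacks, than in a montane strain, Keithly. Higher refers to the signed change from 15 °C to 28 °C and not to its size. The study held fish of both strains and of their F1 cross at 28 °C or at 15 °C, the control temperature, and took gills on days 1, 3, 7 and 28. These 24 groups held 3 RNA-seq libraries each, 72 in all, and every library pooled RNA of 3 fish samples from 1 rearing tank. Each strain therefore had 12 libraries at 28 °C and 12 at 15 °C. The labels do not say which strain was the dam of the cross, nor the age of the fish, nor whether the libraries of a group came from separate tanks, so p-values measure the spread between these pools.

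The heat effect of a feature is the log2 difference between 28 °C and 15 °C, taken from the medians of 3 libraries on the scale log2(value + 0.5), where the value is the authors' normalised read count. A feature entered the list if its heat effect was higher in Little Jacks than in Keithly on all 4 days and by at least 0.8 on average over days. Of 25137 features in the tables, 23234 were in all 3 strains' tables, 16763 of these had an overall mean of at least 5 and could be chosen, and 262 (1.56%), called the members here, were chosen. They were thus chosen by the measured heat effects of Little Jacks and Keithly, which are described here without a test. The F1 cross entered the choice only through the overall mean, and its heat effect is tested.

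The gill is the surface across which a fish exchanges gases, ions and heat with the water, and it meets a change of water temperature directly. Heat is known to induce chaperones and to lower many other transcripts, and the size of such responses is known to differ between fish populations from warm and cool streams. An F1 fish carries one set of chromosomes from each parental strain, so its response can be set between those of the parents. The identifiers of the features carry no gene names, and 0 of the 25137 matched the gene table of the species. The members are therefore described by their values and not by function, and neither the gill's cell type markers nor the chaperones could be looked up. In bulk gill RNA, fewer cells of a type and less RNA per cell cannot be told apart.

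Depth and a block of deviating libraries touch what follows. Library depth, as reads recovered from the values, was 0.276 to 19.9 M (M, mega) with a median of 6.43 M, and 3 libraries had under 1 M. A count of 3 reads corresponded to 0.132 to 9.24 normalised units, so a member at the list's median value of 12.0 rested on a handful of reads in the shallowest libraries. The first component of the spread within groups held 38.6% of that spread, and 7 libraries stood apart at its upper end. They were 3 of Little Jacks, all at 28 °C, 2 of the F1 cross and 2 of Keithly. The F1 cross and Keithly each had 1 at each temperature. Of the 7 libraries, 5 were taken on day 28. All 7 were below the median depth, with 1.75 to 4.95 M reads, but the 3 libraries under 1 M were not among them. The part of depth in this block was not tested. Without the 7 libraries, 216 features met the same rule, and 161 were on both lists, which is 61.5% of the 262 and 74.5% of the 216.

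In the parental strains, most members were higher at 28 °C in Little Jacks and lower at 28 °C in Keithly. The median heat effect in Little Jacks was 0.74 (day 1), 0.68 (day 3), 0.48 (day 7) and 0.40 (day 28). In Keithly it was -0.53, -0.65, -0.60 and -0.70 on the same days. Over all 16763 features that could be chosen, the median lay within 0.0721 of 0 in either parent on every day. A heat effect above 0 on all 4 days was seen for 123 members (46.9%) in Little Jacks and 4 (1.53%) in Keithly. Over the features that could be chosen these shares were 17.8% and 19.8%. An effect below 0 on all 4 days was seen for 6 (2.29%) in Little Jacks and 133 (50.8%) in Keithly, against 19.5% and 16.1%. For 41 members the effect was above 0 in Little Jacks and below 0 in Keithly on every day. The rule favours these directions, so the counts are a description.

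The mean difference between the parents' heat effects had quartiles of 0.93, 1.13 and 1.57 on the log2 scale. It reached 1 in 167 members, 2 in 39, 4 in 11 and 8 in 3, with a highest value of 9.46. The list has no natural edge at its threshold. The last features inside it had mean differences of 0.801, 0.803 and 0.804, and the first outside had 0.799, 0.799 and 0.798. Without replicate 1 or 2 of Little Jacks at 28 °C on day 7, a group whose replicate 3 deviated, 535 or 557 features met the rule. A further 161 features reached 0.8 on average but were not higher in Little Jacks on every day.

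**Figure D1:**
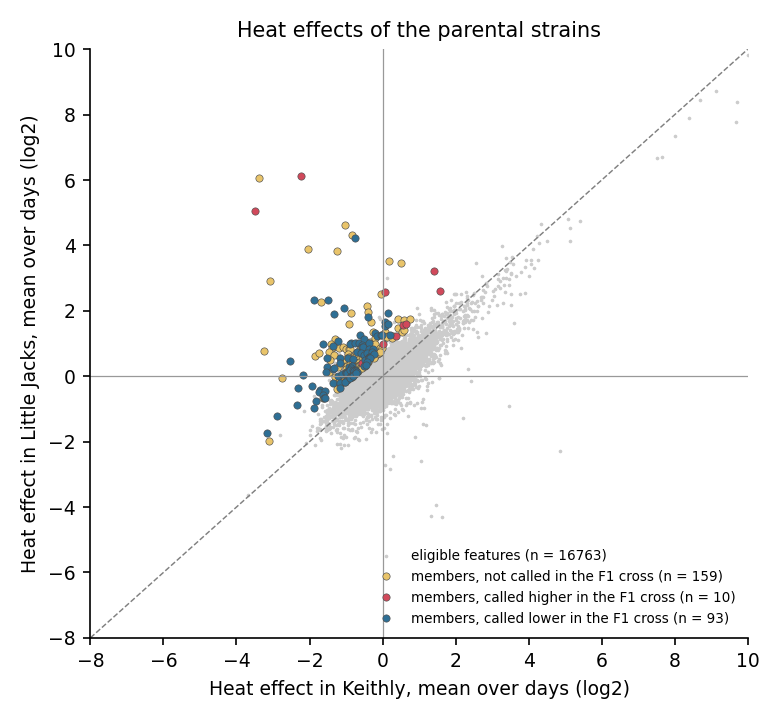
Mean heat effect over days in Little Jacks (vertical axis, log2) against that in Keithly (horizontal axis, log2) for the 16763 features that could be chosen (grey) and the 262 members (coloured by their call in the F1 cross: 10 higher, 93 lower, 159 not called). The dashed line marks equal effects. The members lie above it by construction, and most of them, 196, lie in the upper left field, above 0 in Little Jacks and below 0 in Keithly.

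By the sign of the mean effect, the members fell into 3 kinds. The main kind, 196 members, was above 0 in Little Jacks and below 0 in Keithly, with median effects of 0.60 in Little Jacks and -0.71 in Keithly. In 27 members the effect was above 0 in both strains, and here the medians were 1.54 in Little Jacks and 0.30 in Keithly. In 39 it was below 0 in both, with medians of -0.21 in Little Jacks and -1.19 in Keithly. Without the 7 deviating libraries, 123 of the 196, 16 of the 27 and 22 of the 39 still met the rule.

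The difference between the parents lay at both temperatures. On a scale joined across the 3 tables with TMM factors, which was needed because the authors had normalised each table by itself, the median member was 0.68 (log2) higher in Little Jacks than in Keithly at 28 °C and 0.54 lower in Little Jacks at 15 °C, as a difference of -0.54. At 28 °C, 261 of the 262 members were higher in Little Jacks, and at 15 °C, 254 were lower in Little Jacks. Both held for 253 members. The larger part of the difference was at 28 °C in 168 members and at 15 °C in 94. The rule favours these directions but fixes the sign at neither temperature, since it asks only for a higher heat effect in Little Jacks. The parents' values chose the members, so the directions are given as a description.

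In the F1 cross, which did not choose the members, far more of them fell in heat than rose. In limma's test on all 24011 features of the F1 table, 93 of the 262 members (35.5%) were lower at 28 °C over the 4 days and 10 (3.82%) were higher, at an adjusted p under 0.05. Over all features of that table, 12.8% were called lower and 14.5% higher, and over the features that could be chosen 14.3% were called lower and 17.6% higher. The median fitted change of the members was -0.61 on the log2 scale, against 0.01 for the features that could be chosen, and 210 members (80.2%) had a change below 0. The remaining 159 members passed in neither direction. Without replicate 3 of day 7 at 28 °C, or replicate 2 or 3 of day 1 at 15 °C, there were 6 higher members, while 13% to 13.7% of all features were higher.

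**Figure D2:**
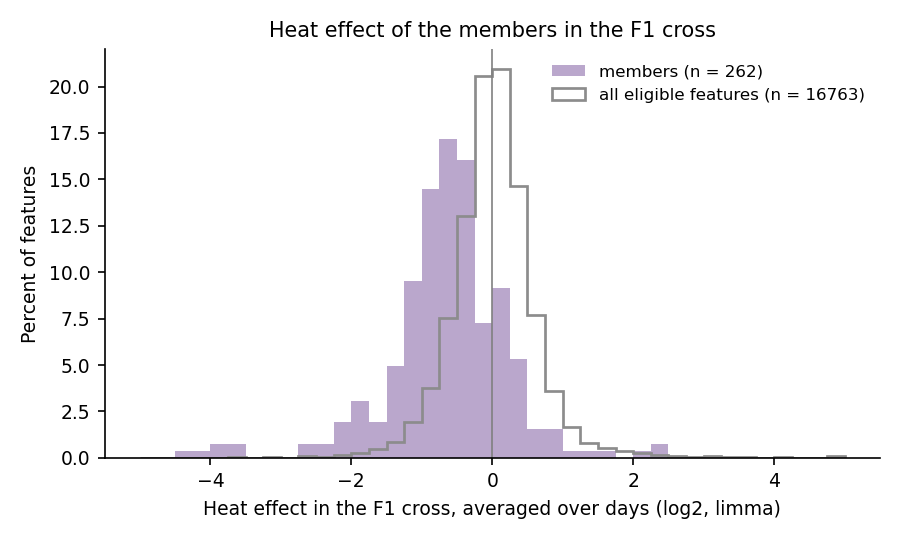
Heat effect in the F1 cross, averaged over days (horizontal axis, log2, from limma), for the 262 members (filled) and the 16763 features that could be chosen (outline), as percent of features per bin (vertical axis). The members sit to the left of the others, with a median of -0.61 against 0.01.

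The members called lower fell by a median of 1.15 on the log2 scale, and their changes ran from -4.46 to -0.32. In 78 of these 93 the estimate was below 0 on each of the 4 days. In Little Jacks, 73 of the 93 had a mean effect above 0, with a median over the 93 of 0.42, and in Keithly 88 had one below 0, with a median of -0.88. The members called higher rose by 0.44 to 2.40, with a median of 1.14, and 8 of these 10 had an estimate above 0 on every day. All 10 were above 0 in Little Jacks, where their median effect was 2.08, and 7 were above 0 in Keithly, where it was 0.22.

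The F1 calls of each kind are given as shares of the kind, beside the 14.3% lower and 17.6% higher over the features that could be chosen. Of the 196 members that were above 0 in Little Jacks and below 0 in Keithly, 68 fell in the F1 cross (34.7%) and 3 rose (1.53%), with a median F1 effect of -0.66. Of the 27 above 0 in both parents, 5 fell (18.5%) and 7 rose (25.9%), with a median of 0.25. Of the 39 below 0 in both, 20 fell (51.3%) and 0 rose, with a median of -0.73. No test compared the kinds with each other.

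With the 2 deviating F1 libraries left out of the fit, 112 members fell and 10 rose, while over all features in that fit 15.1% fell and 14.8% rose. Among the 161 members that also met the rule without the 7 libraries, 71 fell (44.1%) and 8 rose (4.97%) in the fit on all F1 libraries. When the recovered reads were tested with edgeR (quasi-likelihood), 98 members fell and 10 rose, while over all features 14.7% fell and 14.8% rose.

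On single days fewer members passed, and in each case more fell than rose. Day 1 had 54 members lower and 7 higher (5.78% lower and 6.7% higher over all features of the F1 table). On day 3, 38 were lower and 5 higher (3.94% and 6.38% over all features). On day 7, 26 were lower and 3 higher (2.3% and 2.48% over all features). Without replicate 3 of day 7 at 28 °C the day 7 count was 13 lower and 1 higher (0.725% and 1.2% over all features). It was 17 lower and 1 higher without replicate 1 of that day at 15 °C (1.16% and 1.69%) and 18 lower and 0 higher without replicate 3 (1.04% and 1.55%). On day 28, 30 were lower and 2 higher (3.06% and 2.57% over all features). The day 28 count depended on single libraries: it was 66 in both directions together, against 32, without replicate 2 at 28 °C, a deviating library (64 lower and 2 higher, with 7.23% lower and 3.79% higher over all features), and 19 without replicate 3 at 28 °C (18 lower and 1 higher, with 2.54% and 1.48% over all features) or replicate 3 at 15 °C (17 lower and 2 higher, with 1.66% and 2.24%).

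The median heat effect of the members in the F1 cross was -0.49 (day 1), -0.37 (day 3), -0.42 (day 7) and -0.84 (day 28). It was below 0 on all 4 days in 114 members (43.5%) and above 0 on all 4 in 15 (5.73%), while over the features that could be chosen these shares were 20.5% and 19.7%. Called lower on every one of the 4 days were 15 members, on 3 days 9, on 2 days 11 and on 1 day 39, where the shares over all features of the F1 table were 0.754%, 0.933%, 1.64% and 5.99%. Called higher on every day was 1 member, on 3 or 2 days 0 and on 1 day 13, where the shares over all features were 0.729%, 1.05%, 1.85% and 8.38% for 4, 3, 2 and 1 days. The 15 lower on every day had a median effect of -2.20 in the F1 cross, between -4.10 and -1.07. In the parents the same 15 had a median of 0.30 in Little Jacks, between -0.89 and 1.8, and of -0.92 in Keithly, between -2.53 and -0.05.

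**Figure D3:**
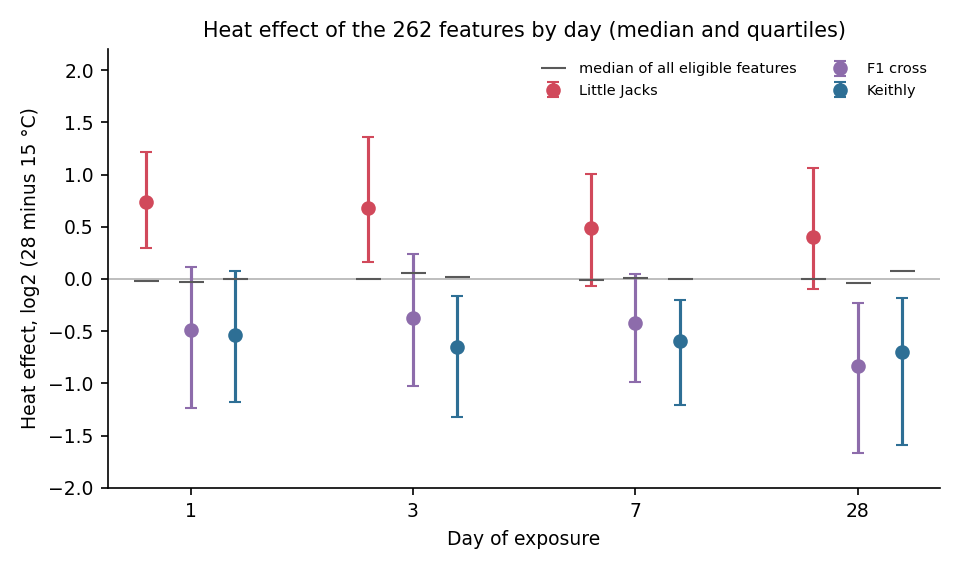
Heat effect (vertical axis, log2 of 28 °C minus 15 °C) of the 262 members on days 1, 3, 7 and 28 (horizontal axis) for Little Jacks, their F1 cross and Keithly. Points are medians over members, bars run from the lower to the upper quartile and short lines give the median of the 16763 features that could be chosen. The medians of the F1 cross, -0.84 to -0.37, lie beside those of Keithly, -0.70 to -0.53, and below those of Little Jacks, 0.40 to 0.74.

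Library by library, the level of the median member, on the log2(value + 0.5) scale of each strain's own table, showed the same directions. In Little Jacks it was between 3.25 and 4.60 in the 12 libraries at 28 °C, with a median of 3.42, and between 2.71 and 3.17 in the 12 at 15 °C, with a median of 2.84. The Little Jacks ranges did not overlap, which the rule favours. In the F1 cross it was between 2.81 and 3.96 at 28 °C, with a median of 2.99, and between 3.28 and 4.59 at 15 °C, with a median of 3.55. The F1 ranges overlapped through 1 library at 28 °C, the deviating one. Without the deviating libraries the F1 levels were 2.81 to 3.13 at 28 °C, with 11 libraries, and 3.28 to 4.03 at 15 °C, with 11, and did not overlap. In Keithly the levels were 2.44 to 3.63 at 28 °C and 3.16 to 4.21 at 15 °C. Without the deviating libraries they were 2.44 to 2.86 at 28 °C and 3.16 to 3.68 at 15 °C, with 11 libraries each. The 3.68 came from the library of 0.276 M reads, where 3 reads were 9.24 units. In that library the median over the features that could be chosen was also 3.68.

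**Figure D4:**
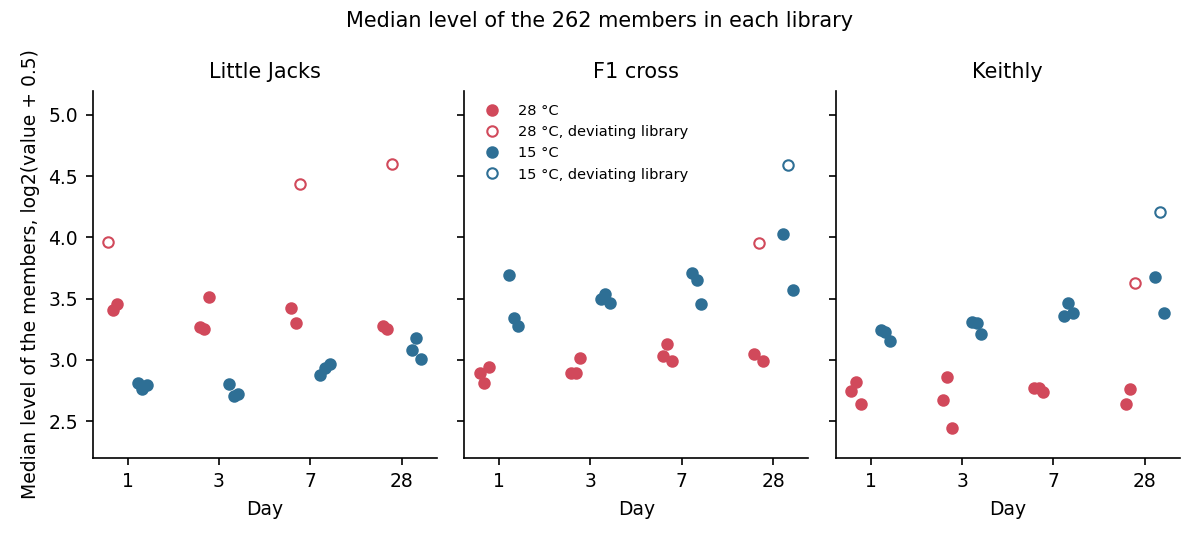
Median level of the 262 members in each library (vertical axis, log2(value + 0.5)) by day (horizontal axis), with a panel each for Little Jacks, F1 cross and Keithly, at 28 °C (red) and 15 °C (blue). Open points are the 7 deviating libraries. Among the filled points, those at 28 °C lie above those at 15 °C in Little Jacks, 3.25 to 3.51 against 2.71 to 3.17, and below them in the F1 cross, 2.81 to 3.13 against 3.28 to 4.03.

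Few members separated all 12 libraries at 28 °C from all 12 at 15 °C. In the F1 cross 12 members were lower in every library at 28 °C than in any at 15 °C and 0 were higher, where the shares over the features that could be chosen were 0.978% lower and 1.31% higher. In Little Jacks 5 were higher throughout and 0 lower (1.34% and 0.901%), and in Keithly 0 were higher and 3 lower (2.05% and 0.471%).

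Placed between the parents, with 0 for the heat effect of Keithly and 1 for that of Little Jacks, the F1 cross had quartiles of -0.26, 0.12 and 0.44. Its effect lay beyond that of Keithly in 107 members, between the parents but nearer Keithly in 100, between them but nearer Little Jacks in 44 and beyond Little Jacks in 11. Thus 207 members (79.0%) were nearer Keithly or beyond it. The scale of this position uses the parental effects that chose the members, so it carries no test.

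The reverse list helps to read that position. By the same rule turned round, 215 features had a heat effect higher in Keithly than in Little Jacks. In the F1 cross 78 of them rose (36.3%) and 22 fell (10.2%), where 17.6% of the features that could be chosen rose and 14.3% fell. The median position was 0.23, with 164 (76.3%) nearer Keithly or beyond it. Across the 16763 features that could be chosen, the mean heat effect of the F1 cross correlated with that of Keithly at a Pearson r of 0.77 and with that of Little Jacks at 0.60, while Little Jacks and Keithly correlated at 0.72. These are correlations across features, which are not independent replicates and share their strain's libraries, and they carry no p.

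By the median member, the level of the F1 cross differed more from Little Jacks at 15 °C than from Keithly at either temperature, which is a description since the parents' values chose the members. On the joined log2 scale the median member at 28 °C stood at 3.34 (Little Jacks), 2.95 (F1 cross) and 2.55 (Keithly). At 15 °C it stood at 2.78 (Little Jacks), 3.56 (F1 cross) and 3.33 (Keithly). The median difference of the F1 cross from Little Jacks was -0.40 at 28 °C, with 233 members lower in the cross, and 0.76 at 15 °C, with 246 higher in the cross. Its median difference from Keithly was 0.30 at 28 °C, with 213 members higher in the cross, and 0.18 at 15 °C, with 171 higher. Over the features that could be chosen, all of these median differences lay within 0.0178 of 0.

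Identifiers are given for 5 members. Of those above 3 reads in at least 2 of 3 libraries of every group, g18690 and g40474 had the largest parental difference among the members that rose in the F1 cross, and g05733 and g00350 among those that fell. The fifth, g00347, had the largest parental difference of all and was singled out after its values were seen. Values below are the authors' normalised read counts.

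The member g00350 was higher in heat in Little Jacks and fell in the F1 cross. At 28 °C the F1 libraries had 12.6, 12.5 and 9.09 (day 1), 21.9, 76.2 and 34.9 (day 3), 226.0, 34.3 and 147 (day 7), and 19.5, 103 and 55.0 (day 28). At 15 °C they had 55.9, 57.5 and 32.0 (day 1), 74.0, 70.7 and 45.9 (day 3), 88.4, 108 and 87.8 (day 7), and 161, 145 and 180.5 (day 28). All F1 libraries at 28 °C were below those at 15 °C on days 1 and 28, and the groups overlapped on days 3 and 7. Averaged over days it fell by 1.07 (log2, SE 0.28, adjusted p = 0.00594 by limma), and on day 1 by 2.01 (SE 0.55, adjusted p = 0.0182 by limma).

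In Little Jacks g00350 ranged from 15.7 to 145.5 at 28 °C, with a median of 81.0 over 12 libraries, and from 2.51 to 51.1 at 15 °C, with a median of 11.5. In Keithly it ranged from 1.79 to 61.2 at 28 °C, with a median of 11.1, and from 15.4 to 118 at 15 °C, with a median of 28.4. On days 1 and 3 the libraries at 28 °C and at 15 °C did not overlap in either parent, and the parents lay on opposite sides. Another member followed it closely, with a Pearson r of 0.98 over the F1 deviations from group means and 0.97 over all 72 libraries on the log2 scale.

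The largest parental difference among the members that fell in the F1 cross belonged to g05733. In the F1 libraries at 28 °C it had 21.0, 3.43 and 5.56 (day 1), 16.0, 3.24 and 4.21 (day 3), 17.1, 31.6 and 153 (day 7), and 11.7, 109 and 1.78 (day 28). The F1 libraries at 15 °C had 72.0, 65.0 and 39.3 (day 1), 5.38, 134 and 71.7 (day 3), 35.9, 81.8 and 57.0 (day 7), and 106, 182 and 61.4 (day 28). Only on day 1 did the temperatures not overlap, and on day 28 the highest library at each temperature was the deviating one. The overlap on day 3 came from the 15 °C value of 5.38, which was 4 reads. Averaged over days it fell by 2.15 (log2, SE 0.57, adjusted p = 0.00665 by limma).

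In Little Jacks the same feature was high in heat, from 27.0 to 321 at 28 °C with a median of 104, and from 1.00 to 47.9 at 15 °C with a median of 4.77. In Keithly it ranged from 2.24 to 36.0 at 28 °C with a median of 5.39, and from 2.19 to 77.9 at 15 °C with a median of 6.74. The Keithly medians at 28 °C were 8.08 (day 1), 3.41 (day 3), 2.71 (day 7) and 17.8 (day 28). At 15 °C they were 3.53, 8.30, 20.7 and 21.6 on the same days. The 21.6 was 7 reads in a library of 0.276 M. The other Keithly values at 15 °C on day 28 were 77.9, from the deviating library, and 4.09. The median of the F1 libraries at 15 °C, 68.4, was above the median of either parent at that temperature on the scale of each table. A value of 5.38 in 1 F1 library was below the Keithly median, but it was 4 reads in a library of 0.614 M.

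Among the 4 days, the F1 change of g40474 passed the test on day 3 only. At 28 °C its F1 values were 11.3, 7.93 and 8.56 (day 1), 50.6, 24.4 and 69.5 (day 3), 12.4, 19.2 and 17.4 (day 7), and 23.3, 53.6 and 32.5 (day 28). At 15 °C they were 24.6, 2.13 and 5.42 (day 1), 10.8, 0.285 and 1.2 (day 3), 14.6, 7.85 and 1.16 (day 7), and 25.9, 149 and 3.10 (day 28). The temperatures did not overlap on day 3 and overlapped on the other days. The day 28 value of 149 came from the deviating library, and the day 3 value of 0.285 was 1 read.

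Averaged over days, g40474 rose by 1.65 in the F1 cross (log2, SE 0.53, adjusted p = 0.0244 by limma), and on day 3 by 4.18 (SE 1.06, adjusted p = 0.0147 by limma). The averaged call was lost on the recovered reads, with a log2 change of 1.2 (adjusted p = 0.0957) by edgeR and 0.97 (adjusted p = 0.186) by DESeq2. It was also lost without replicate 2 of day 1 at 15 °C (adjusted p = 0.0509 by limma) or replicate 3 of day 7 at 15 °C (adjusted p = 0.0524 by limma). In Little Jacks g40474 had 6.24 to 254 at 28 °C, with a median of 39.1, and 1.26 to 8.46 at 15 °C, with a median of 2.67. In Keithly it had 7.41 to 66.5 at 28 °C, with a median of 17.3, and 1.74 to 72.5 at 15 °C, with a median of 5.10. The Keithly values of 66.5 and 72.5 came from its deviating libraries, both of day 28. By median, Keithly was higher at 28 °C on days 1, 3 and 7. On day 28 it was lower, with 22.6 at 28 °C against 37.0 at 15 °C, and the 37.0 was 12 reads. The 3 highest Little Jacks values, 254, 144 and 90.0, were those of the deviating libraries.

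The other member that rose, g18690, was near the limit of the test. Its F1 values at 28 °C were 14.0, 5.21 and 32.1 (day 1), 46.4, 34.8 and 43.4 (day 3), 11.8, 14.1 and 10.1 (day 7), and 9.73, 12.5 and 29.5 (day 28). At 15 °C they were 11.2, 4.89 and 6.68 (day 1), 5.38, 10.8 and 10.6 (day 3), 6.85, 8.18 and 20.3 (day 7), and 25.7, 23.2 and 4.69 (day 28). As in g40474, the temperatures did not overlap on day 3 and overlapped on the other days.

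Averaged over days g18690 rose by 0.83 in the F1 cross (log2, SE 0.30, adjusted p = 0.0421 by limma), and on day 3 by 2.21 (SE 0.60, adjusted p = 0.0215 by limma). Leaving out single F1 libraries ended that call in 14 of 24 cases. In Little Jacks it had 3.22 to 36.4 at 28 °C, with a median of 13.8, and 0.251 to 8.07 at 15 °C, with a median of 1.46. In Keithly the ranges were 0 to 28.9 at 28 °C and 0 to 26.6 at 15 °C. The Keithly medians over 12 libraries were 7.83 at 28 °C and 7.24 at 15 °C. By day, its medians at 28 °C were 1.85 (day 1), 14.3 (day 3), 10.9 (day 7) and 11.0 (day 28). Those at 15 °C were 14.3, 7.64, 6.84 and 3.86 on the same days. By median, Keithly was thus lower at 28 °C on day 1 and higher on days 3, 7 and 28. The Little Jacks value of 0.251 was 1 read, and a Keithly value of 0 allows up to 3 reads. For the 0 at 28 °C (day 3) that is 0.896 units. For the 0 at 15 °C (day 28), in a library of 0.276 M reads, it is 9.24 units. That is above the Keithly median of 7.24 over 12 libraries at 15 °C. Of the 4 parental medians over 12 libraries, the lowest was that of Little Jacks at 15 °C.

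The largest parental difference, 9.46 on the log2 scale, was that of g00347, whose libraries took either high or low values in Little Jacks and, but for 1 library at 28 °C with 15.0, in the F1 cross. In Little Jacks the 12 libraries at 28 °C had 77.3 to 527 with a median of 245.5, and the 12 at 15 °C had 2.41 to 5.76 with a median of 3.6. In the F1 cross the 28 °C libraries had 253, 15.0 and 186 (day 1), 448, 4.01 and 848 (day 3), 4.25, 2.62 and 901 (day 7), and 514, 186 and 2.59 (day 28). The F1 libraries at 15 °C had 3.22, 220.0 and 456 (day 1), 182, 223 and 353 (day 3), 345, 390 and 385 (day 7), and 3.34, 209.8 and 358 (day 28). High and low libraries thus stood in the same F1 group at both temperatures.

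Counted as libraries above 10 normalised units, g00347 was high in 12 of 12 Little Jacks libraries at 28 °C and 0 of 12 at 15 °C. In the F1 cross it was high in 8 of 12 at 28 °C and 10 of 12 at 15 °C, and in Keithly in 3 of 12 at 28 °C and 10 of 12 at 15 °C. The low Keithly libraries at 28 °C had 1.18 to 5.38 and the high ones 212.5, 253 and 434. At 15 °C the Keithly libraries had 15.1, 30.8 and 36.1 (day 1), 54.6, 21.8 and 184 (day 3), 187, 117 and 352 (day 7), and 9.24, 37.0 and 5.73 (day 28). The 9.24 was 3 reads in a library of 0.276 M, so this library, counted as low, cannot be placed above or below 10 units. The other Keithly libraries at 15 °C ran from low to high with intermediate values between. In the F1 cross no heat effect passed the test (log2 change -1.17, SE 1.15, adjusted p = 0.489 by limma). Values above and below 10 units were found both among the 7 deviating libraries and among the others, and g00347 met the rule with and without them.

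**Figure D5:**
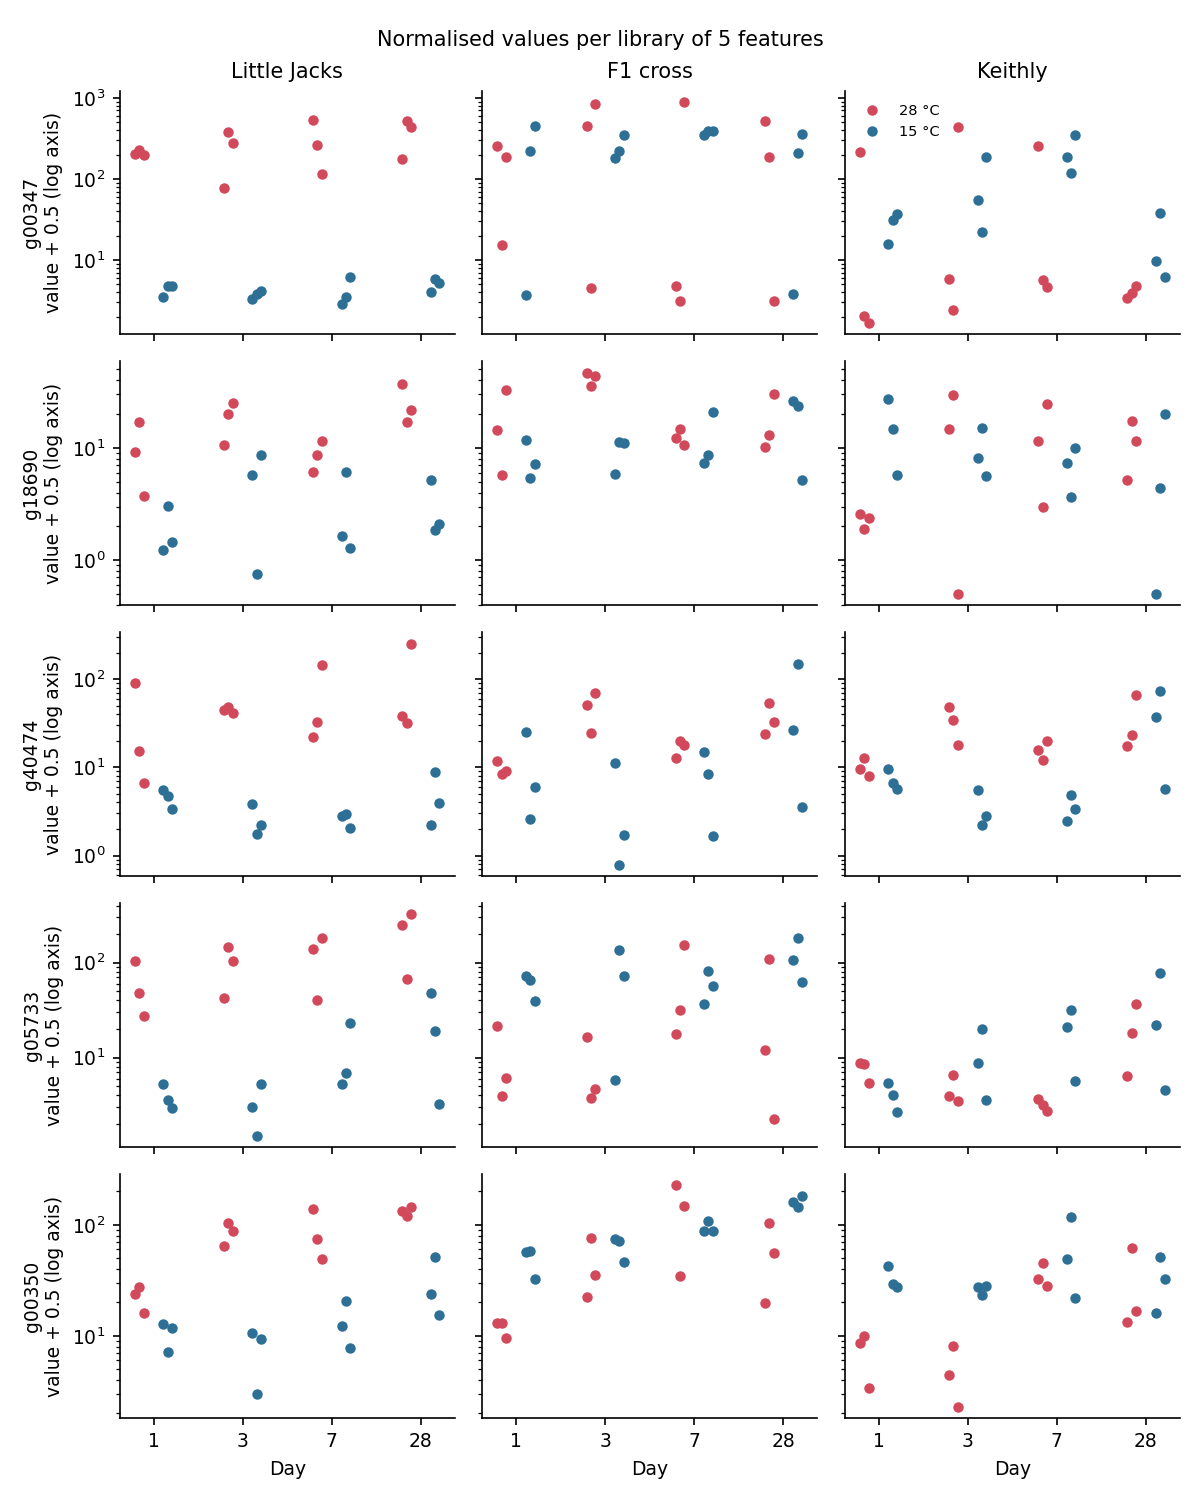
Normalised values of 5 members (rows, value + 0.5 on a log axis) in each library by day (horizontal axis), with a panel each for Little Jacks, F1 cross and Keithly, at 28 °C (red, left of each pair) and 15 °C (blue). In Little Jacks g00347 separates the temperatures, 77.3 to 527 at 28 °C against 2.41 to 5.76 at 15 °C, whereas in the F1 cross each temperature holds both high and low libraries.

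The members shared traits that the rule did not ask for directly. A fixed threshold on medians of 3 libraries can favour variable or low features, so these traits are a description. The members varied more between libraries of a group: the median of their SD within F1 groups was 0.72 on the log2 scale, against 0.39 for the features that could be chosen and 0.54 for the reverse list. The 2 deviating F1 libraries were included in this SD. A 16-fold range among the 3 libraries of at least 1 F1 group was seen in 77 members (29.4%), against 9.23% of the features that could be chosen. Their values were also somewhat lower, with a median overall mean of 12.0 against 15.7 normalised units, which are not divided by transcript length and so speak of reads only. Identifiers that begin with "singleton" made up 10 of the members (3.82%), against 1.57% of the features that could be chosen. In 34 of the 262 the values did not exceed 3 reads in at least 2 of 3 libraries of every group.

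A part of the list moved with the deviating libraries. In 69 members (26.3%) the mean deviation of the 7 libraries from their group was at least 1 on the log2 scale, against 8.07% of the features that could be chosen and 6.05% of the reverse list. Of the 7, the 3 libraries of Little Jacks and the 2 of Keithly were also used by the rule. The rule can therefore favour such features, and these shares are a description. Of these 69, 24 met the rule without the 7 libraries, and in the F1 cross 7 fell (10.1%) and 1 rose (1.45%). Both shares are below the 14.3% lower and 17.6% higher over the features that could be chosen. The other 2 of the 7 are F1 libraries in that fit, and a large deviation there widens the spread the test uses. Fewer calls among the 69 can thus follow from how they were picked, and do not speak of a weaker F1 effect. Of the other 193, 137 met the rule without the 7 libraries, and in the F1 cross 86 fell (44.6%) and 9 rose (4.66%). The 69 had median heat effects of 0.57 (Little Jacks), -0.74 (F1 cross) and -0.73 (Keithly), and the 193 had 0.57 (Little Jacks), -0.57 (F1 cross) and -0.74 (Keithly). Of the members given by identifier, g40474 and g05733 were among the 69, and both met the rule without the 7 libraries. The part of the deviating libraries in the values of the 69 was not tested.

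Members did not vary as one block within groups. Over the F1 deviations from group means, the median Pearson r of the 34191 pairs of members was 0.06, and 270 pairs, which involved 62 members, had an r over 0.9. Among the 66 members with the largest parental differences the median F1 effect was -0.91, with 28 called lower (42.4%) and 4 higher (6.06%). Among the 66 with the smallest it was -0.40, with 19 lower (28.8%) and 1 higher (1.52%). Over the features that could be chosen the shares were 14.3% lower and 17.6% higher, and the 2 sets of 66 were not tested against each other.

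The change of the F1 heat effect over time was tested as day 28 minus day 1. It passed in 4 members, with 1 higher (0.382%) and 3 lower (1.15%), while 1.18% of all features of the F1 table were higher and 2.4% lower, so the members' shares were below the background. The direction depended on the scaling: with values scaled to the column total, which moved the median of all features for this difference to 0.73, 25 members passed, all higher on day 28 (10% higher and 0.858% lower over all features). The count was 7 or 8 when any library of day 28 at 28 °C was left out, and 8 without replicate 1 of day 3 at 15 °C. In these fits 0.925% to 1.7% of all features were higher and 2.24% to 3.12% lower. In the 3 members whose effect was lower on day 28, the fitted effects were 2.83 (day 1) and 0.86 (day 28) in the first, 2.04 and 0.16 in another, and 1.53 and -0.93 in the last. The member whose effect was higher had -1.99 (day 1) and -0.56 (day 28). At 15 °C alone, 0 members differed between day 28 and day 1 by limma, where 0.0125% of all features were higher and 0.00416% lower. At an unadjusted p under 0.05 by limma there were 41 of the 262 members, beside 1688 of the 16763 features that could be chosen. Over the whole F1 table there were 1988 of 24011. By adjusted p there were 0 members by edgeR and 16 by DESeq2, all higher on day 28 (over all features 0.0125% higher and 0% lower by edgeR, and 1.91% higher and 0.578% lower by DESeq2). The median change of the members at 15 °C was 0.54 on the log2 scale, and 0.28 without the 2 deviating F1 libraries.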

How the data were processed

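Gill libraries of Little Jacks, the F1 cross and Keithly were analysed from the tables the authors deposited, 1 per strain, with 24 libraries each. CASAVA 1.8, Bowtie and edgeR were used, per the submitters' processing notes; the sources used here do not give the reference transcriptome or its filters. RNA was depleted of ribosomal RNA before library preparation, per the labels' protocols. The deposited values are a normalised signal, reads per feature over a scaled library size. Columns were tied to groups by name, and their sample numbers matched no label. The descriptions of 3 F1 samples (28 °C, day 1) name the Little Jacks table, but the columns of that group stand in the F1 table and were taken from there. No column was left unused, and 0 pairs of libraries were identical.

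Reads were recovered by dividing each column by its smallest step (100% of values whole within 0.01), and the counting limits above cover counting error only. The main test was limma 3.58.1 (R 4.3.3) with a trended prior on log2(value + 0.5), 1 mean per group, on all 24011 F1 features, two-sided, with Benjamini-Hochberg adjustment over all of them and calls at an adjusted p under 0.05. Fold changes on that scale understate the change of low features. The fit was checked on simulated counts, drawn independently and without a block of deviating libraries, so that check does not cover such a block. Alternatives were edgeR 4.0.16 and DESeq2 1.42.0 on the recovered reads, other scalings, pseudocounts and floors, and leaving out libraries. Deviating libraries were those beyond the largest gap on the first principal component of the deviations from group means over 16763 features.

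The members, the lists and the rules were chosen with earlier results of these data known. Named members were the 2 that rose and 2 that fell in the F1 cross with the largest parental difference among those above 3 reads in at least 2 of 3 libraries of every group. The lists of cell type markers and of heat response genes had 0 matches among the identifiers and were not used.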

Additional observations from a re-analysis of the deposited data

Results flagged for a closer look

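In the F1 cross, 4 members had a heat effect that differed between day 28 and day 1 by the test of that difference itself (limma, adjusted p under 0.05), 1 higher (0.382% of the members) and 3 lower (1.15%). Over all features of the F1 table the shares were 1.18% higher and 2.4% lower, so the count is below the background and says nothing particular to the members. The differences were -2.46, -1.97 and -1.88 on the log2 scale in the 3 members with the lower effect on day 28, and 1.43 in the member with the higher effect. By edgeR there were 8, 3 higher and 5 lower (1.39% and 2.59% over all features), and by DESeq2 12, 6 higher and 6 lower (1.95% and 3.68% over all features). With values scaled to the column total there were 25, all with a higher effect on day 28 (10% higher and 0.858% lower over all features).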

How the results depend on the processing

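No paired analysis was possible because the columns carry sample numbers that match no label. The alternatives were other scalings, pseudocounts, a filter, other tools, and fits without the deviating libraries or those under 1 M reads. Over the 4 days the F1 cross then gave 7 to 11 of the 262 members higher and 91 to 124 lower, against 10 and 93. Of all features tested in the same runs, 7.01% to 18.4% were higher and 12% to 18.8% lower. The counts of 7 and 124 came with scaling to the column total (7.01% and 18.8% over all features). More members fell than rose on every day under each scaling. TMM scaling gave the same counts as the deposited values, so it is not a separate check. The exception in direction was day 28 minus day 1. Scaling to the column total moved the median of all F1 features to -0.69 on day 1 (otherwise -0.04) and to 0.73 for day 28 minus day 1 (otherwise -0.10), and the calls moved as well: on day 1 it gave 100 members called, 2 higher and 98 lower (2.8% and 22.7% over all features), against 61, and for day 28 minus day 1 it gave 25, all higher, against 4. On day 7 the same scaling gave 0 higher and 22 lower (1.15% and 1.61% over all features). For day 28 minus day 1, the count was 8 without the libraries under 1 M reads (1.55% higher and 3.15% lower over all features). It was 8 with edgeR (1.39% and 2.59%) and 12 with DESeq2 (1.95% and 3.68%). At 15 °C, day 28 against day 1, DESeq2 gave 16 against 0 (1.91% higher and 0.578% lower over all features). The number of members, 262, became 883 with means of the 3 log values, 115 with a threshold of 1.2, 92 with a floor of 20 and 475 with no floor. The median F1 heat effect of the members stayed between -0.87 and -0.43 in these lists. The causes of these shifts were not tested.

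With single F1 libraries left out, members higher over the 4 days ran from 6 to 10 and members lower from 88 to 120. Over all features the shares in these fits ran from 12.8% to 16.7% higher and from 11.4% to 14.5% lower. The count of 6 came without replicate 3 of day 7 at 28 °C, or replicate 2 or 3 of day 1 at 15 °C. Members called ran from 45 to 67 on day 1, 30 to 51 on day 3, 14 to 32 on day 7 and 19 to 66 on day 28, from 4 to 8 for day 28 minus day 1, and stayed at 0 for the change at 15 °C. Over all features the shares on day 1 were 4.74% to 8.04% higher and 3.61% to 7.41% lower. On day 3 they were 3.03% to 12.8% and 2.25% to 4.81%, and on day 7 1.2% to 3.32% and 0.725% to 2.97%. On day 28 they were 1.19% to 3.79% and 1.57% to 7.23%, and for day 28 minus day 1 0.729% to 1.7% and 1.83% to 3.12%. The count on day 7 was 14 without replicate 3 at 28 °C and 18 without replicate 1 or 3 at 15 °C. For day 28 minus day 1 it was 7 or 8 without any of the 3 libraries of day 28 at 28 °C, and 8 without replicate 1 of day 3 at 15 °C. With single parental libraries left out, the number of members ran from 214 to 557. It was 535 and 557 without replicates 1 and 2 of Little Jacks at 28 °C on day 7, which leaves the deviating replicate 3 in a median of 2 libraries. The median F1 effect ran from -0.68 to -0.56. For g18690 the averaged F1 change was 0.65 to 1.00 and for g40474 1.3 to 1.98 with single libraries left out. Under the other alternatives g40474 had 0.97 (DESeq2) to 1.99 (without the libraries under 1 M reads), against 1.65, and with values scaled to the column total g18690 had 0.64 (adjusted p = 0.0922 by limma). The calls of g05733 and g00350 held in every alternative run. Depth limits the members most in the 3 libraries under 1 M reads.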
